A study of Rattus norvegicus with 4 samples.

Results

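Genes of homologous recombination, the Fanconi pathway, mismatch repair and the DNA damage checkpoint were compared between INS-1 cells embedded in a bioprinted hydrogel (3D) and the same cells grown as a monolayer (2D). The genes were taken from a list of 34 symbols, of which 33 were found among the 23360 gene symbols of the expression files. Chek1 was not analysed here. INS-1 832/3 is a rat insulinoma line that carries the human insulin gene and secretes insulin. Both groups were passage 3 cells in the same RPMI-1640 medium, taken after 5 days, with 2 cultures per group: the 2D cultures were standard monolayers without gel, and the 3D cultures were printed in GelXA LAMININK 411, a gelatin methacrylate gel with laminin-411 that was set with UV light. Printing, gel, light and the third dimension differ together between the groups and cannot be told apart, and all 4 cultures come from 1 cell line.

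Homologous recombination repairs broken DNA by copying an intact sister chromatid, so it works in the S and G2 phases of cycling cells. The broken ends are trimmed to single strands, on which the BRCA proteins load a recombinase that searches for the matching sequence. The Fanconi proteins start the same kind of repair at crosslinks between the DNA strands, and the kinases Atm and Atr pause the cell cycle meanwhile. Mature beta cells seldom divide, whereas insulinoma lines such as INS-1 keep cycling.

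The values are TPM (transcripts per 1000000 transcripts), which are corrected for transcript length and therefore allow levels to be compared between genes. They were summed per gene and divided by a scaling factor per culture, from 0.963 to 1.02, and are called scaled TPM here. Values of each group are given for replicate 1 and then replicate 2. Changes are log2 fold changes, 3D minus 2D, on the log2(TPM + 1) scale, which understates the change of genes with low values. Adjusted p-values are from limma with Benjamini-Hochberg adjustment over all 11960 genes whose TPM averaged 1 or more. The depth behind a TPM is not kept, and counting errors are therefore unknown. For 1 gene alone, exact permutation of 2 + 2 cultures has a smallest two-sided p of 0.33. The cells expressed the beta-cell genes expected of the label, with all 8 markers averaging at least 1 TPM. The summed level of 4 endothelial, 4 fibroblast and 5 macrophage markers stayed at or below 1.68, 2.35 and 1.49 TPM in every culture. Of these, 2, 1 and 1 were at 0 in all cultures. An average of at least 1 TPM was reached by 1 endothelial marker (Kdr), 1 fibroblast marker (Pdgfra) and 0 macrophage markers.

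The listed repair and checkpoint genes mostly had lower values in 3D culture. Of the 33 genes, 32 passed the expression filter, and 15 of these fell while 2 rose with an adjusted p below 0.05. The share that fell was 46.9%, where 19.3% of all genes tested fell, and the share that rose was 6.25%, where 18.5% of all genes rose. The median log2 fold change was -0.26 over the 32 genes and -0.00053 over all genes tested. The falls were moderate in size, from 16.7% for Rad50 to 42.9% for Rad54l. Without regard to the test, both 3D cultures lay below both 2D cultures in 22 of the 32 genes, or 68.8% against 37.9% of all genes, and above both in 4, or 12.5% against 37.7%. Groups that did not overlap were found in 26 of the 32 genes (81.2%) and in 75.6% of all genes. In such bulk samples, fewer cells of a cycle phase and less RNA per cell cannot be told apart.

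The calls rest on few cultures. With 2D replicate 1 or 2 left out, 9 or 12 of the 32 genes were called lower, with 3D replicate 2 left out only Chek2 and Clspn, and with 3D replicate 1 left out none, a setting in which 4 of 11921 genes were called lower in all. The log2 fold change of each of the 15 genes stayed negative in all of these settings. The cultures of a group were not evenly spread: 2D replicate 1 was above 2D replicate 2 in 25 of the 32 genes (78.1%, against 49.1% of all genes), and 3D replicate 1 was below 3D replicate 2 in 21 (65.6%, against 49.3%). The median difference was larger between the cultures numbered 1, at -0.36 on the log2 scale, than between those numbered 2, at -0.20.

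**Figure D1:**
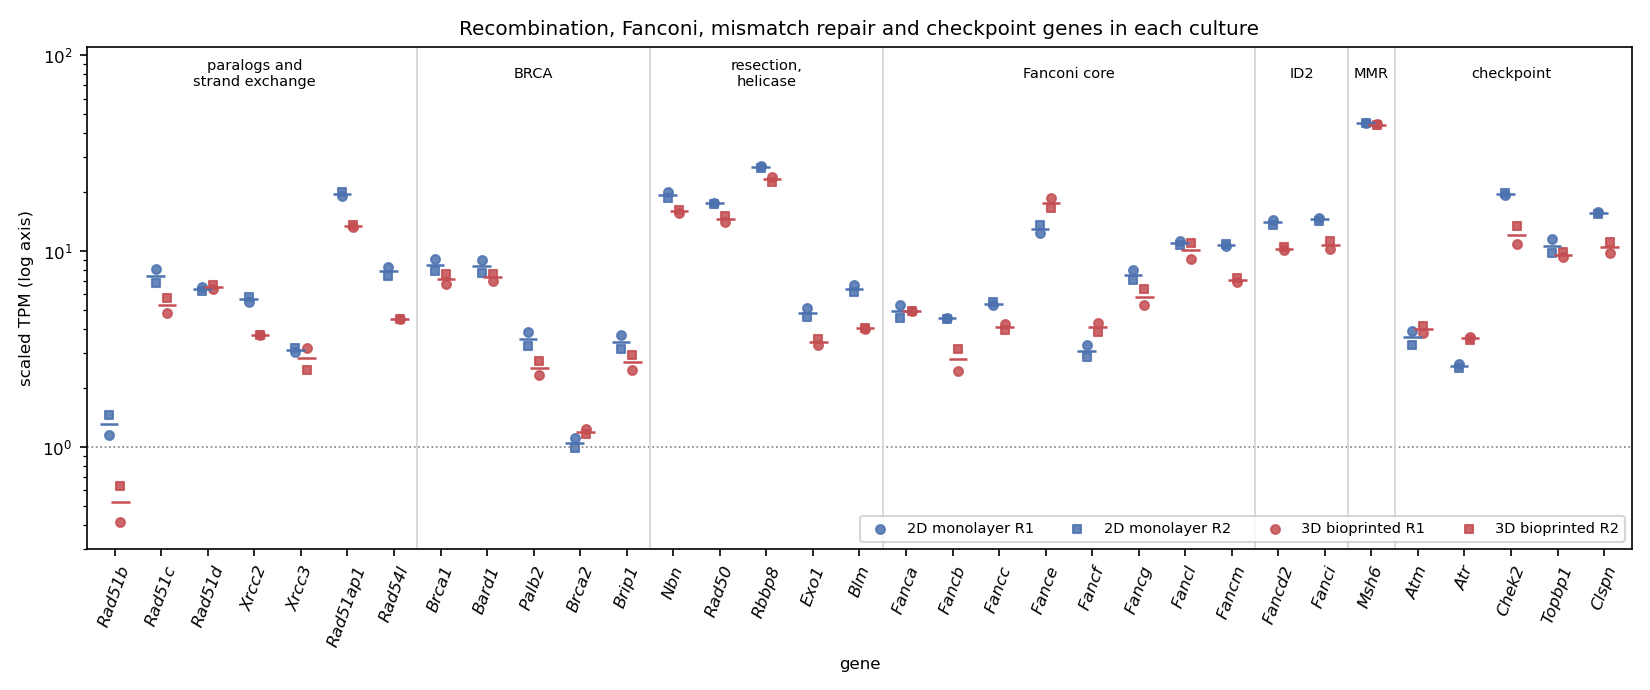
Scaled TPM (log axis) of the 33 genes in each culture, grouped by role; circles are replicate 1, squares replicate 2, horizontal bars the mean of 2 cultures, and the dotted line marks 1 TPM. The levels run from 0.414 for Rad51b in a 3D culture to 45.2 for Msh6 in a 2D culture, and the 3D cultures lie below the 2D cultures in most genes, with Fance, Fancf, Atr and Brca2 the other way round.

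The levels were low. The median gene of the 32 had a mean of 6.59 scaled TPM, 20 were below 10, and only 4 lay above the median level of all genes tested, namely Msh6, Rbbp8, Nbn and Rad51ap1. The range was wide, with Msh6 at 45.0 ± 0.204 scaled TPM (SD, n = 2) in 2D culture and Brca2 at 1.05 ± 0.0839.

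Promoter sequences were looked up because E2F transcription factors drive many genes of S phase. RefSeq sequences on GRCr8, matched by symbol, were found for 29 of the 33 genes, and the 250 bases before the start of each gene were searched on both strands. The E2F consensus was searched as TTTCCCGC, TTTCGCGC, TTTGCCGC or TTTGGCGC, and was found in 5 of the 29 promoters (17.2%), compared with 3.51% of the 8792 promoters of tested genes and 1.81% of all 27457 promoters. The stretches around these matches are shown 5′ to 3′ on the strand of the gene, with the matching bases in capitals, and their positions refer to GRCr8, not to the rn4 build that the methods name for the expression values.
Fancc (chr17:1687049-1687078, + strand): cccttgcgaccGCGGGAAAattccaaactc
Topbp1 (chr8:112766740-112766769, + strand): ccgctcgTTTGGCGCGAAAgtcggttcctg
Bard1 (chr9:80143942-80143971, - strand): gtgccgctctgTTTCCCGCtcaggaagttt
Rad51d (chr10:68321903-68321927, - strand): acctgcatcctTTTCCCGCcccctc
Atm (chr8:62828850-62828879, - strand): gatccgtgcacGCGGGAAAaggcgaagcga
In Topbp1, which has 3 entries in the table and is shown by the first, the capitals are 2 overlapping matches on opposite strands. Of these 5 genes, Fancc fell in 3D culture, and the log2 fold changes of the others were -0.17 for Bard1, -0.13 for Topbp1, 0.03 for Rad51d and 0.11 for Atm, none of them past the test. Among the 11 fallen genes with a promoter sequence, 1 held the E2F letters. The CHR element of cell cycle genes, TTTGAA, was found in Fanci, Bard1 and Rbbp8 (10.3%, against 9.60% of the promoters of tested genes), and CCAAT in 13 of the 29 (44.8%, against 36.0%). These are matches of letters and say nothing about binding.

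The strand exchange group, the paralogs of the recombinase and its partners, held the largest fall. Rad54l, a motor protein that helps the recombinase invade the intact duplex, was at 8.27 and 7.46 scaled TPM in the 2D cultures and at 4.494 and 4.485 in the 3D cultures. Both 3D values were well below both 2D values, a log2 fold change of -0.69 (limma SE 0.088, adjusted p = 0.0060). Rad51ap1, a DNA-binding partner that stimulates strand invasion, went from 19.1 and 19.9 to 13.2 and 13.5 scaled TPM. This was a log2 fold change of -0.51 (limma SE 0.064, adjusted p = 0.0059), the smallest SE in the group.

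Among the paralogs, which form small complexes that steady the recombinase filament, Xrcc2 fell from 5.48 and 5.84 to 3.73 scaled TPM in both 3D cultures (log2 fold change -0.49, limma SE 0.087, adjusted p = 0.0119). Rad51c, shared by both paralog complexes, fell from 8.09 and 6.88 to 4.84 and 5.78 scaled TPM (log2 fold change -0.43, limma adjusted p = 0.0383). The groups did not overlap in either gene. The call for Rad51c was held in 5 of 8 other settings of the processing, with adjusted p from 0.0365 to 0.0763. Rad51d, which forms a complex with Xrcc2, was at 6.57 and 6.24 scaled TPM in 2D and 6.43 and 6.70 in 3D culture, with overlapping groups (log2 fold change 0.03, 95% interval -0.17 to 0.23). Xrcc3, the partner of Rad51c, had 3.06 and 3.19 scaled TPM in 2D and 3.18 and 2.47 in 3D culture, again overlapping (log2 fold change -0.11, limma adjusted p = 0.506). Rad51b was below the filter at a mean of 0.905 TPM. Its scaled TPM of 1.15 and 1.45 in 2D and 0.414 and 0.632 in 3D culture did not overlap, and in the fit without an expression filter its log2 fold change was -0.61 with an adjusted p of 0.0328 in limma. Whether the changes of the paralogs differ from each other was not tested.

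In the BRCA group, 0 of 5 genes passed the test in limma, where 19.3% of all genes tested fell and 18.5% rose. Palb2 alone had an unadjusted p below 0.05 in limma. Brca1, the ubiquitin ligase that steers breaks toward recombination, was at 9.06 and 7.93 scaled TPM in the 2D cultures and 6.75 and 7.65 in the 3D cultures. Bard1, its obligate partner, was at 8.98 and 7.74 and at 7.03 and 7.62. In both genes 3D replicate 2 came close to 2D replicate 2. The limma log2 fold changes were -0.21 for Brca1 (adjusted p = 0.148) and -0.17 for Bard1 (adjusted p = 0.219). Palb2, which links Brca1 to Brca2, had 3.84 and 3.26 scaled TPM in 2D and 2.33 and 2.74 in 3D culture (log2 fold change -0.36, adjusted p = 0.0632), and passed in limma without the intensity trend (adjusted p = 0.0480). Brip1, a helicase that binds Brca1, had 3.70 and 3.16 in 2D and 2.46 and 2.94 in 3D culture (log2 fold change -0.26, adjusted p = 0.145). In these 4 genes both 3D cultures lay below both 2D cultures, which was so for 37.9% of all genes, and the groups were close. Brca2, which loads the recombinase onto single-stranded DNA, was the one gene of the group with higher values in 3D culture, at 1.11 and 0.990 scaled TPM in 2D and 1.23 and 1.16 in 3D, a difference with a 95% interval from -0.22 to 0.42 on the log2 scale.

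Of 5 genes that trim and unwind broken ends, 4 fell (80%, where 19.3% of all genes tested fell). In all 5 both 3D cultures lay below both 2D cultures, which was so for 37.9% of all genes. Nbn and Rad50 belong to the complex that recognises ends and tethers them. Nbn fell from 20.0 and 18.7 to 15.6 and 16.2 scaled TPM (log2 fold change -0.27, limma adjusted p = 0.0296), and Rad50 from 17.5 and 17.4 to 14.1 and 15.0 (log2 fold change -0.25, adjusted p = 0.0351). Exo1, a nuclease that extends the single strand, fell from 5.09 and 4.61 to 3.29 and 3.53 scaled TPM (log2 fold change -0.41, limma adjusted p = 0.0265). These 3 falls lost their call on TPM without scaling, where the adjusted p was 0.0816, 0.0857 and 0.0530, and that of Rad50 was also lost whichever culture was left out (adjusted p from 0.0613 to 0.217). Blm, the helicase missing in Bloom syndrome, fell from 6.68 and 6.17 to 4.01 and 4.05 scaled TPM, a log2 fold change of -0.56 (limma SE 0.087, adjusted p = 0.0090) that was past the threshold in all 8 other settings. Rbbp8, also called CtIP, which starts the trimming, was the most abundant of the 5 and its change was the smallest, with 27.1 and 26.4 scaled TPM in 2D and 24.0 and 22.5 in 3D culture (log2 fold change -0.20, adjusted p = 0.0568).

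**Figure D2:**
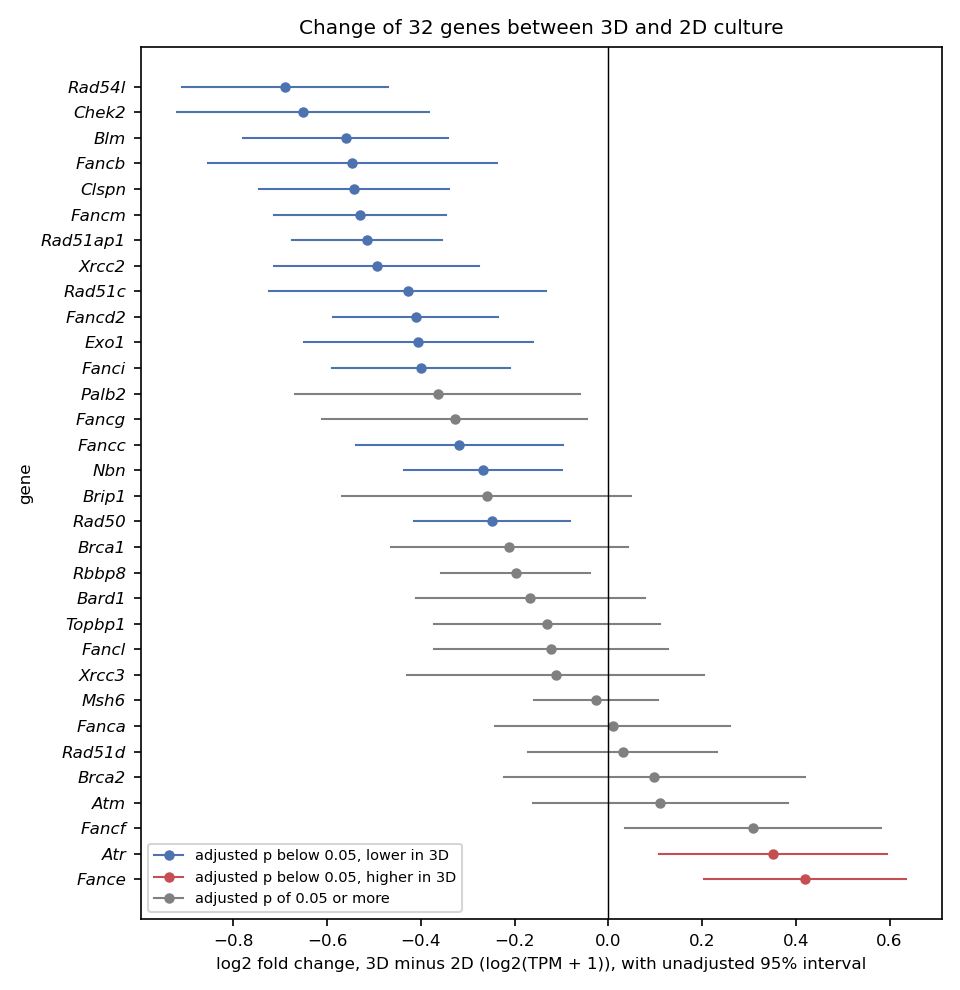
Log2 fold change of the 32 tested genes, 3D minus 2D on the log2(TPM + 1) scale, ordered by size, with unadjusted 95% intervals from limma; blue and red mark adjusted p below 0.05 for falls and rises, grey all others. Rad54l and Chek2 are at the low end, at -0.69 and -0.65, and Atr and Fance at the high end, at 0.35 and 0.42.

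The Fanconi core complex is a ubiquitin ligase whose target is the pair Fancd2 and Fanci, the step that turns the pathway on. Both targets fell: Fancd2 from 14.4 and 13.6 to 10.1 and 10.4 scaled TPM and Fanci from 14.8 and 14.2 to 10.3 and 11.3. Their log2 fold changes were close to each other, at -0.41 and -0.40 (adjusted p = 0.0111 and 0.0141 in limma), and both passed in all 8 other settings.

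Within the core complex, 3 of 8 genes fell (37.5%, against 19.3% of all genes) and 1 rose (12.5%, against 18.5%). Fancm, the translocase that anchors the complex on DNA, went from 10.6 and 10.8 to 6.94 and 7.31 scaled TPM (log2 fold change -0.53, limma SE 0.073, adjusted p = 0.0071). Fancb went from 4.55 and 4.52 to 2.44 and 3.17 scaled TPM (log2 fold change -0.55, adjusted p = 0.0224), and Fancc from 5.28 and 5.46 to 4.25 and 3.96 (log2 fold change -0.32, adjusted p = 0.0390). The call for Fancb was lost whichever culture was left out, with adjusted p from 0.0547 to 0.123. The call for Fancc was held in 4 of 7 other settings, with adjusted p up to 0.0655, and was lost whichever culture was left out. Fance, the subunit that contacts Fancd2, moved the opposite way to its target. It rose from 12.3 and 13.5 to 18.6 and 16.6 scaled TPM, a log2 fold change of 0.42 (limma SE 0.086, adjusted p = 0.0173), and was past the threshold in all 8 other settings. Fancf, the adaptor of the complex, had 3.32 and 2.87 scaled TPM in 2D and 4.28 and 3.86 in 3D culture, with both 3D cultures above both 2D cultures but an adjusted p of 0.0731. Fancg, at 8.02 and 7.10 in 2D and 5.29 and 6.37 in 3D, lay the other way with an adjusted p of 0.0674. The catalytic subunit Fancl had 11.2 and 10.8 scaled TPM in 2D and 9.14 and 10.98 in 3D culture, and Fanca had 5.3 and 4.53 in 2D and 4.96 and 4.92 in 3D. In these last 2 genes the groups overlapped, and the log2 fold changes were -0.12 and 0.0090.

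Msh6, which with its partner recognises mismatched bases, was the most abundant of the 33 genes in every culture. It was at 45.2 and 44.9 scaled TPM in the 2D cultures and at 44.4 and 43.9 in the 3D cultures, close together though not overlapping. The log2 fold change was -0.03 with a 95% interval from -0.16 to 0.11, and it was 0.0131 on TPM without scaling.

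Of the 5 tested checkpoint genes, 2 fell (40%, against 19.3% of all genes) and 1 rose (20%, against 18.5%). Atr, the kinase that answers stalled replication, rose from 2.65 and 2.54 to 3.64 and 3.52 scaled TPM, a log2 fold change of 0.35 (limma SE 0.097, adjusted p = 0.0386). The call for Atr was held in 5 of 7 other settings, with adjusted p up to 0.0647, and was lost whichever culture was left out. Atm, the kinase that answers double-strand breaks, was at 3.91 and 3.33 scaled TPM in 2D and 3.82 and 4.14 in 3D culture, with overlapping groups (log2 fold change 0.11, adjusted p = 0.445). Chek2, the effector kinase below Atm, fell from 19.2 and 19.8 to 10.8 and 13.5 scaled TPM, a log2 fold change of -0.65 (limma SE 0.108, adjusted p = 0.0102). Clspn, the adaptor through which Atr activates its effector kinase, fell from 15.8 and 15.5 to 9.78 and 11.1 scaled TPM (log2 fold change -0.54, limma SE 0.081, adjusted p = 0.0082). For both genes the call was held in all 8 other settings and in 3 of the 4 with a culture left out. Topbp1, which activates Atr, had 11.5 and 9.73 scaled TPM in 2D and 9.28 and 9.83 in 3D culture, and the groups overlapped (log2 fold change -0.13, adjusted p = 0.315).

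The files list transcripts separately, and for several genes with more than 1 transcript the sum hid unequal parts. Chek2 has the transcripts ENSRNOT00000085591, at 10.8 and 11.2 scaled TPM in 2D and 7.40 and 8.92 in 3D culture, and ENSRNOT00000056800, at 8.44 and 8.62 in 2D and 3.42 and 4.52 in 3D. Both were lower in 3D culture, the second more so, and its share of the gene was 43.9% and 43.6% in 2D and 31.6% and 33.6% in 3D. On the more abundant transcript alone, the log2 fold change of Chek2 was -0.38 (limma adjusted p = 0.0419), beside -0.65 on the sum. For Brca1, the main transcript ENSRNOT00000083111 went from 7.51 and 7.45 to 5.31 and 5.74 scaled TPM, and the minor one, ENSRNOT00000028109, ranged from 0.475 to 1.91 without separating the groups. For Bard1, ENSRNOT00000087870 went from 5.58 and 5.05 to 3.90 and 3.45, while ENSRNOT00000020414 was at 3.40 and 2.70 in 2D and 3.14 and 4.17 in 3D culture. When each gene was represented by its most abundant transcript in place of the sum, Brca1 and Bard1 passed the test, with log2 fold changes of -0.37 and -0.43 (adjusted p = 0.0260 and 0.0336 in limma). The same was true of Rbbp8, at -0.26 (adjusted p = 0.0389), whose minor transcript ENSRNOT00000078615 made up 4.79% and 4.92% of the gene in 2D and 8.85% and 10.1% in 3D culture.

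Fancm showed the reverse. Of its 7 transcripts, 5 had a mean of at least 0.5 scaled TPM, and the most abundant, ENSRNOT00000086081, was at 3.47 and 2.53 scaled TPM in 2D and 3.72 and 3.51 in 3D culture. On that transcript alone the log2 fold change was 0.22 with an adjusted p of 0.272. The fall of the sum came largely with ENSRNOT00000093492, which went from 2.11 and 2.13 to 0 and 0.573, and with ENSRNOT00000086894, at 2.72 and 3.29 in 2D and 0.740 and 2.36 in 3D. For Fancb, ENSRNOT00000082358 was at 2.85 and 2.11 in 2D and 1.65 and 1.43 in 3D culture, with a log2 fold change of -0.44 and an adjusted p of 0.0769 on that transcript alone, and ENSRNOT00000004456 at 1.70 and 2.40 and at 0.792 and 1.74. In Msh6 the 2 leading transcripts, ENSRNOT00000021923 and ENSRNOT00000093689, ranged from 19.5 to 24.8 and from 17.2 to 21.6 scaled TPM, with overlapping groups in both. Reads shared by transcripts of a gene are divided between them by estimation, so shares within a gene are less certain than sums.

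**Figure D3:**
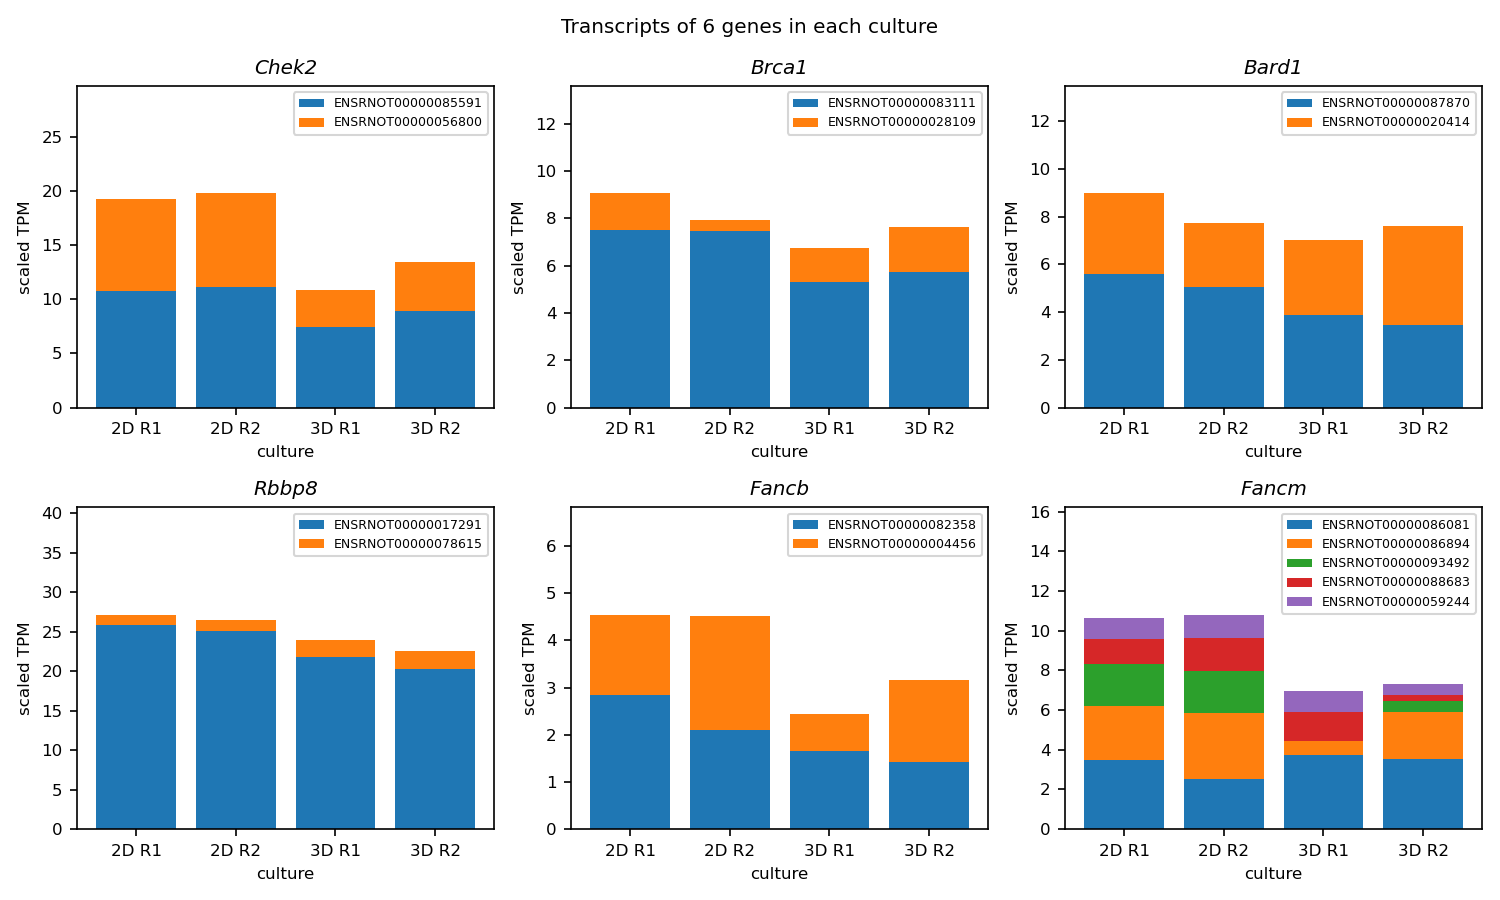
Scaled TPM of the transcripts with a mean of at least 0.5 for 6 genes, stacked, in the 2 cultures of each group (R1 and R2). In Chek2 both transcripts are lower in 3D culture; in Bard1 ENSRNOT00000087870 is lower while ENSRNOT00000020414 is not; in Fancm ENSRNOT00000086081 stays between 2.53 and 3.72.

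Of 65 further recombination, Fanconi and checkpoint genes, 63 were tested, with a median log2 fold change of -0.10. Of these, 19 fell (30.2%, against 19.3% of all genes) and 4 rose (6.35%, against 18.5%). The smallest p-values were those of Ube2t, the ubiquitin-conjugating enzyme that serves the Fanconi core complex, of Psmc3ip, a cofactor of strand exchange, and of Rpa1, which coats single-stranded DNA. Ube2t fell from 59.5 ± 0.637 to 34.6 ± 2.05 scaled TPM (SD, n = 2; log2 fold change -0.77, adjusted p = 0.0038 in limma), Psmc3ip from 34.2 ± 0.555 to 21.1 ± 0.565 (-0.67, adjusted p = 0.0040) and Rpa1 from 30.4 ± 1.06 to 18.7 ± 0.296 (-0.68, adjusted p = 0.0041).

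Counts for other repair routes are to be read beside the shares over all genes tested, of which 19.3% fell and 18.5% rose. Of 12 tested genes of non-homologous end joining, which rejoins ends directly, 2 fell (16.7%) and 0 rose: Xrcc5, a subunit of the end-binding Ku dimer, at a log2 fold change of -0.49 (limma adjusted p = 0.0089) and its partner Xrcc6 at -0.25 (adjusted p = 0.0235). Prkdc, the kinase that Ku recruits, was at 3.66 ± 0.369 scaled TPM in 2D and 4.83 ± 0.249 in 3D culture (SD, n = 2), with an adjusted p of 0.0555 in limma. At an unadjusted p below 0.05, 5 genes of the list were lower and 1, Prkdc, was higher. Of 18 nucleotide excision repair genes, which remove bulky lesions such as those of UV light, 3 fell and 3 rose (16.7% each). The smallest p-values were those of rises, in Ercc6 (log2 fold change 0.48, limma adjusted p = 0.0090), Ercc5 (0.46, 0.0106) and Uvssa (0.64, 0.0110). The list as a whole did not rise: its median log2 fold change was -0.09. At an unadjusted p below 0.05 in limma, 6 of its genes were lower and 4 higher. Of 20 base excision genes, 7 fell (35.0%) and 0 rose in limma, with 8 lower and 4 higher at an unadjusted p below 0.05. The falls were led by Fen1, Parp1 and Parp2 with log2 fold changes of -0.48, -0.42 and -0.55, and Fen1 also processes Okazaki fragments in replication.

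Targets of p53, the transcription factor downstream of Atm and Chek2, were read as a list of 18 genes, of which 16 were tested. Of these, 4 fell (25.0%, where 19.3% of all genes fell) and 1 rose (6.25%, where 18.5% rose), and the median log2 fold change was -0.14. Among the 4 that fell, Cdkn1a, an inhibitor of cyclin-dependent kinases, was at 51.2 ± 3.19 scaled TPM in 2D and 20.4 ± 2.53 in 3D culture (SD, n = 2), Phlda3 at 29.4 ± 1.17 and 14.02 ± 1.39, and Ccng1 at 223 ± 11.4 and 121 ± 15.2. Their log2 fold changes were -1.29, -1.02 and -0.89 (adjusted p = 0.0036, 0.0038 and 0.0048 in limma). The rise was that of the kinase gene Plk3, named after its values were seen, with a log2 fold change of 0.77 (adjusted p = 0.0077), and 11 targets did not pass, among them Mdm2, the ubiquitin ligase of p53, at -0.07.

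Cell cycle genes were also mostly lower in the 3D cultures. The S phase and G2/M lists were used with the 33 genes and the genes of the other lists taken out. The gene sets are not separate in kind: Rad51ap1, Exo1, Blm and Clspn, which all fell, are on the S phase list as shipped. They were counted here only with the 33 genes. Of 34 tested S phase genes, 24 fell (70.6%, where 19.3% of all genes fell) and 0 rose (where 18.5% of all genes rose). At an unadjusted p below 0.05 in limma, 26 were lower and 0 higher. The summed S phase level was 2050 and 2051 scaled TPM in the 2D cultures and 1604 in both 3D cultures. Of 51 G2/M genes, 44 fell (86.3%) and 0 rose, and 47 were lower and 0 higher at an unadjusted p below 0.05 in limma. The G2/M sums were 3138 and 3249 scaled TPM in 2D and 2223 and 2282 in 3D culture. The sum over the 33 repair and checkpoint genes was 342.8 and 330.5 scaled TPM in 2D and 275.1 and 285.5 in 3D. The median log2 fold change was -0.37 for S phase, -0.47 for G2/M and -0.26 for the repair and checkpoint genes. Examples are Gmnn, which restrains a second round of replication, from 55.0 ± 1.60 to 31.2 ± 1.80 scaled TPM, Rrm1, a subunit of ribonucleotide reductase, from 132 ± 3.23 to 91.5 ± 1.04, and Cdca8, a subunit of the chromosomal passenger complex, from 75.2 ± 5.50 to 40.9 ± 2.57 (SD, n = 2). The part of the cell cycle genes in the falls of the repair genes was not tested.

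**Figure D4:**
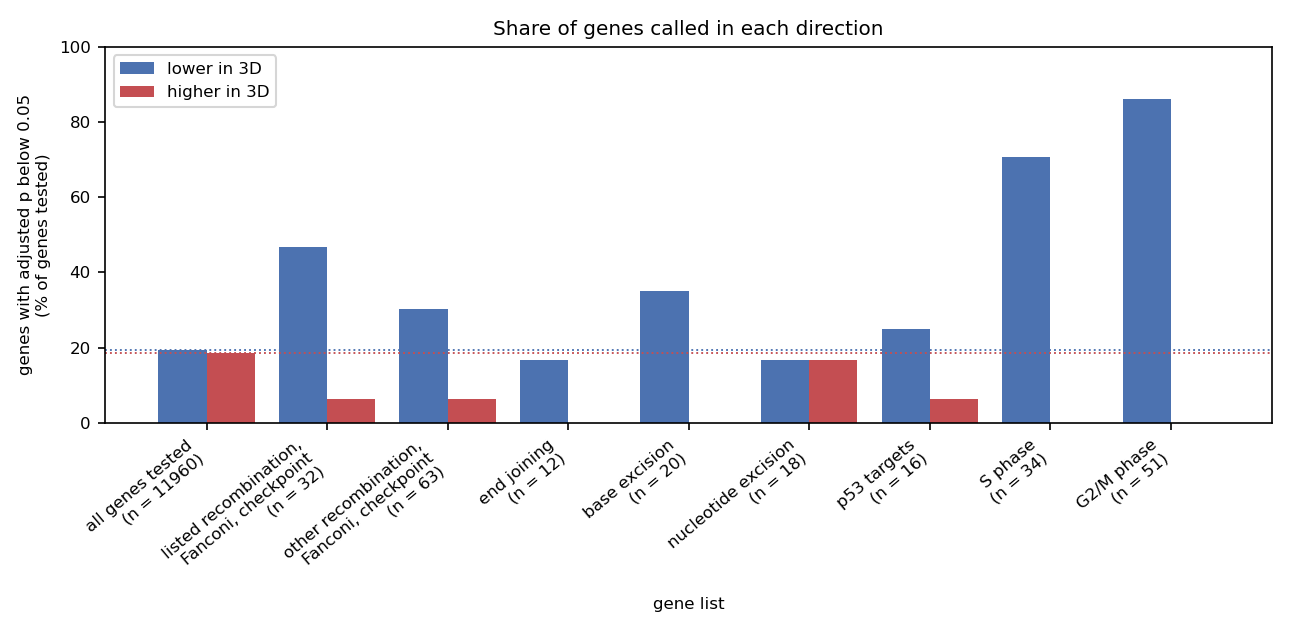
Percentage of the tested genes of each list with an adjusted p below 0.05, lower (blue) or higher (red) in 3D culture, with the number tested in parentheses; dotted lines give the shares over all 11960 genes, 19.3% and 18.5%, and a missing bar is a count of 0. The listed repair and checkpoint genes, at 46.9% lower, lie between the other genes of their pathways, at 30.2%, and the S phase genes, at 70.6%.

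Some of these genes start close to a neighbour read in the other direction, and whether the pair shares a promoter was not tested. In the RefSeq table, 9 of the 29 genes had a neighbour whose start lay within 1000 bases in a head-to-head arrangement, and 5 of these neighbours were tested. Emc3, the neighbour of Fancd2 and a subunit of a membrane protein insertase, was at 49.4 ± 1.69 scaled TPM in 2D and 48.8 ± 1.11 in 3D culture (SD, n = 2), a log2 fold change of -0.02, beside -0.41 for Fancd2. Nbr1, the autophagy receptor next to Brca1, was at 79.2 ± 0.245 and 82.4 ± 5.01 scaled TPM. Npat, next to Atm, had a log2 fold change of 0.30 (limma adjusted p = 0.112), Dctn5, next to Palb2, of -0.20 (adjusted p = 0.0672) and Zfyve21, next to Xrcc3, of -0.28 (adjusted p = 0.0446). The differences between the members of a pair were not tested.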

How the data were processed

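Per the labels and the methods, stranded polyA libraries of 4 cultures were sequenced as single-end reads, checked with FastQC 0.11.8, and quantified per transcript with Salmon 1.2 against rn4 with the human insulin gene added. The authors deposited TPM with decimal commas, normalized for transcript length, which sum to 1000000 in each sample. Because TPM are not counts, the DESeq2 test of the methods was not repeated.

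Each symbol's transcripts were added up, and symbols averaging 1 TPM or more were tested. Cultures were scaled by TMM without weights, dropping the outer 30% of M and 5% of A on either side, and limma 3.58.1 in R 4.3.3 (empirical Bayes with intensity trend) was run on log2(TPM + 1). The genes and lists were chosen with earlier results of these data known. Cell cycle lists were those of Seurat 5.3.0. All 33 genes are named, with the 3 smallest p-values of each other list, except for some genes whose results are not reported here. Alternatives were scaling, filter, pseudocount, trend, transcript choice, replicate block, threshold and each culture left out. Replicate numbers were not treated as pairs. No genome was used, and promoters were matched to RefSeq by symbol.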

Additional observations from a re-analysis of the deposited data

How the results depend on the processing

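With 2 cultures per group the calls are sensitive to single cultures and the threshold, and the cause of each shift was not tested. When 1 culture was dropped at a time (the lone culture of a group is assumed to vary like the other group), the number of genes that fell ran from 0 to 12 for the repair and checkpoint genes, 0 to 18 for the other genes of their pathways, 0 to 3 for end joining, 0 to 7 for base excision, 0 to 4 for nucleotide excision, 0 to 6 for p53 targets, 0 to 26 for S phase, 0 to 45 for G2/M and 4 to 2290 for all genes. The number that rose ran from 0 to 1 for the repair and checkpoint genes and from 37 to 2314 for all genes. Every lowest value was that without 3D replicate 1, shared in part with 3D replicate 2.

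At an adjusted p below 0.01, 5 repair and checkpoint genes fell (Rad51ap1, Rad54l, Blm, Fancm and Clspn) and 0 rose, beside 9 other pathway genes, 1 of end joining, 3 of base excision, 0 of nucleotide excision, 13 of S phase, 29 of G2/M and 691 lower and 721 higher of all genes. Without the expression filter, 4 end joining genes fell, and 1 repair or checkpoint gene rose, as with a mean TPM of at least 5 and with the replicate block. The block called 14 repair and checkpoint genes lower, without Fancc. Deviations of the cultures numbered 1 from their group means were not correlated between the groups (correlation -0.0059 over all genes). This cannot tell whether cultures of the same number were set up together. On TPM without scaling, 10 of the 15 falls were called. The median log2 fold change of all genes was then 0.04.

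The log2 fold change changed sign for Fanca without the expression filter (-0.0197), for Fancm on its main transcript (0.222), and for Msh6 without scaling (0.0131) and on its main transcript (0.0832). With cultures left out it ran from -0.004 to 0.058 for Rad51d, from -0.245 to 0.0236 for Xrcc3 and from -0.0869 to 0.0946 for Fanca. In the other 224 pairs of a gene and a setting of the processing neither sign nor call changed, 12 calls were lost besides that of Fancm, and 4 were gained (Brca1, Bard1 and Rbbp8 on the main transcript and Palb2 without the intensity trend).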
